A study of Mus musculus with 4 samples.

Results

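The 44 mouse genes for the chains of collagen, the protein of which most of the extracellular matrix is built, were described in 4 RNA-seq libraries of the B16F10 melanoma. Members were chosen by symbol alone (Col, a number, the letter a and a number). This rule was set with earlier results of these data known. A read in any library was required, which all 44 such genes of the 24527 in the count table had. Of these, 11 encode fibrillar chains, 8 encode chains of basement membranes and 25 encode other chains, and 30 of the 44 had a mean of at least 1 CPM over the 4 libraries (CPM is reads scaled to a common library size, here with TMM factors).

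B16F10 is a mouse melanoma line and NIH/3T3 a mouse fibroblast line. The 4 libraries came from B16F10 cells grown alone on plastic (2D monoculture), from B16F10 cells of a flat culture shared with NIH/3T3 cells (2D co-culture), from B16F10 cells of hanging-drop spheroids grown with NIH/3T3 cells (spheroid), and from a tumor that grew under the skin of the flank of female C57BL/6 mice aged 1 year. All 4 are labelled wild type, and per the study's methods the cultured B16F10 cells carried turboGFP and were sorted for it with dead cells left out, the NIH/3T3 cells of the spheroids being red. The study describes the tumor cells as sorted too, whereas the label of that library names a snap-frozen tumor. Each condition had 1 library, so no test between conditions was possible, and every interval given is a 95% interval of counting error alone.

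Collagen chains wind around each other into a helix, and the chains that a cell makes decide which collagen it can build. Types I, III and V form the banded fibrils of connective tissue and are typical products of fibroblasts, type IV forms the sheet of basement membranes, and type VI forms beaded filaments around cells. Types that sit on fibrils without forming them (FACIT), short chains that build nets and chains anchored in the cell membrane make up most of the others.

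The totals ran from 118896900 to 150028663 reads, and the upper limit for a gene without reads (3 reads) was 0.0185 to 0.0262 CPM. The 8 melanocyte genes checked were all present in every library, the lowest being Mitf with 70.3 CPM in the spheroid. The 9 fibroblast genes without collagens summed to 120 CPM in the 2D monoculture, 234 in the 2D co-culture, 291 in the spheroid and 834 in the tumor, and Fbln1 held most of the sum in each culture. Myeloid genes (6) summed to 1540 CPM in the tumor and at most 29.9 CPM in a culture, and skeletal muscle genes (5) to 4599 CPM in the tumor and 3.29 to 12.4 CPM in the cultures. The part of these cells in the collagen values was not tested, and in bulk RNA fewer cells of a type and less RNA per cell cannot be told apart.

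Promoters are shown for 6 members, picked with their values known, as examples of chains highest, before any correction for GC content, in the tumor (Col1a2, Col3a1), the 2D co-culture (Col6a1, Col4a6) and the spheroid (Col5a3, Col4a5), the pair Col4a6 and Col4a5 lying side by side. Each is the 120 bases before the RefSeq start, or before a GENCODE transcript start where one lies upstream within the bases the RefSeq table holds, on build GRCm38.p6. None overlaps an annotated exon, but the Col1a2 window lies inside the GENCODE gene, of which another transcript starts further upstream (position 4504814). Capitals mark a match to GGGCGG (the GC box), TATAAA (the TATA box), CCAAT (the CCAAT box) or CATGTG (an E-box) on either strand.
Col1a2 (chr6:4505373-4505492, plus strand): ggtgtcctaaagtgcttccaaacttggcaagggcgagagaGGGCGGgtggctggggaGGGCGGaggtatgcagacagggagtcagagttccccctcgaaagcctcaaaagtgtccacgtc
Col3a1 (chr1:45311418-45311537, plus strand): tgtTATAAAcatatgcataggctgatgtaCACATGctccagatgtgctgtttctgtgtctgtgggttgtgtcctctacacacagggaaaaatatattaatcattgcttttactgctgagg
Col6a1 (chr10:76726169-76726288, minus strand): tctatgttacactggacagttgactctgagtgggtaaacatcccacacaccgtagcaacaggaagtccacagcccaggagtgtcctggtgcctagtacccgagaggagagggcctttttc
Col4a6 (chrX:141474077-141474196, minus strand): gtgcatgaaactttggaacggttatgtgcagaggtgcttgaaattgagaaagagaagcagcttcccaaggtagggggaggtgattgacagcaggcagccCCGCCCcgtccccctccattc
Col4a5 (chrX:141475265-141475384, plus strand): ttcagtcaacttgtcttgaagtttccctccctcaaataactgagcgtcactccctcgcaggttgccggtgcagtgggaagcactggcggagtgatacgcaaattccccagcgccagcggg
Col5a3 (chr9:20815068-20815187, minus strand): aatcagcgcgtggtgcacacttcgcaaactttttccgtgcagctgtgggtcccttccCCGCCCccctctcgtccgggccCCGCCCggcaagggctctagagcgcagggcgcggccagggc
The GC box stood in 19 of the 35 members with a promoter in the RefSeq table and in 26.0% of all 32851 promoters. The TATA box stood in 3 members and in 6.23% of all promoters, the CCAAT box in 3 and 21.4%, and the E-box in 2 and 5.66%. These are matches of letters only. Col4a6 and Col4a5 run away from each other on the X chromosome, with 1342 bases between their RefSeq starts.

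Collagen transcripts took a larger share of the tumor library than of any culture. The 44 members reached a sum of 320 CPM in B16F10 cells grown alone, 1387 with fibroblasts on plastic, 769 as spheroids and 3899 as a tumor. The 2D co-culture and the tumor were filled by fibrillar chains, while basement membrane chains held the largest share in the 2D monoculture and the spheroid. Of all collagen reads, fibrillar chains made 26.6% in the 2D monoculture, 58.9% in the 2D co-culture, 30.7% in the spheroid and 72.9% in the tumor. Basement membrane chains made 49.1%, 17.0%, 55.2% and 14.5% in the same order. The other chains made 24.4%, 24.0%, 14.0% and 12.6%.
Their sums differed more between libraries for fibrillar than for basement membrane chains. The fibrillar sum was 85.1 CPM in the 2D monoculture, and it was 2.78-fold higher in the spheroid (log2 1.47, interval 1.44 to 1.5), 9.60-fold higher in the 2D co-culture (log2 3.26, interval 3.24 to 3.29) and 33.4-fold higher in the tumor (log2 5.06, interval 5.04 to 5.09). Without types I and III these folds were 2.81, 2.29 and 4.26. The sum of basement membrane chains was 157 CPM in the 2D monoculture and was 2.70-fold, 1.5-fold and 3.60-fold higher in the same order. Leaving out types I and III thus lowered the fibrillar fold in the 2D co-culture and the tumor and left that of the spheroid as it was. In the spheroid, Col4a1 made 51.9% of basement membrane reads and Col5a3 58.5% of fibrillar reads, so these sums do not describe every chain. Among chains averaging 1 CPM or more, the median rise from 2D monoculture to spheroid was log2 0.44 (basement membrane) and 0.89 (fibrillar). The correction for GC content and length lowered these medians to 0.08 and 0.37. Over all chains with a read, uncorrected, they were 0.295 and 0.462. The median of all genes was 0.05 among those averaging 1 CPM or more and 0 among those with a read.

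**Figure D1:**
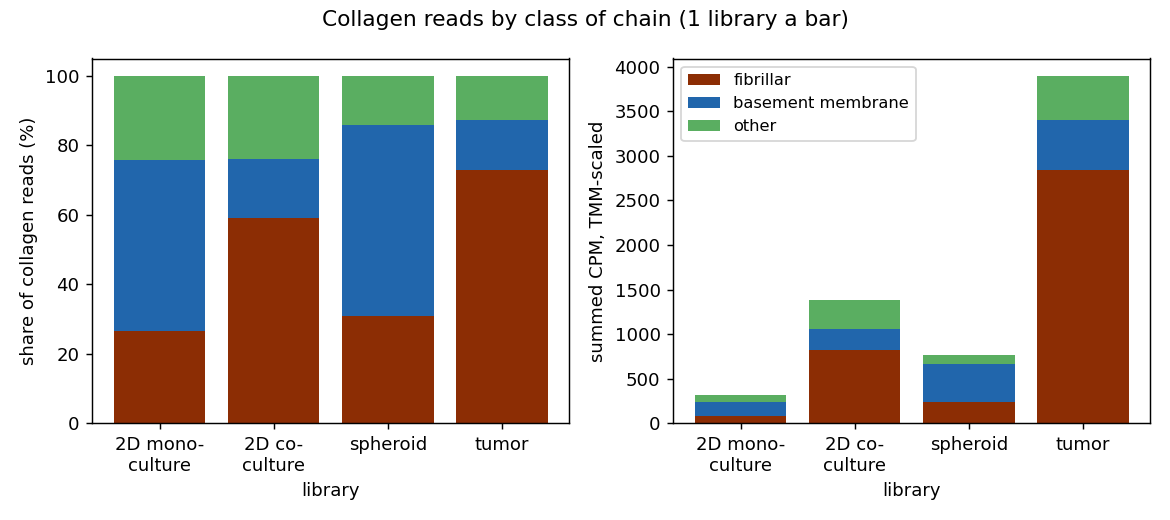
The bars show the share of collagen reads (left, percent) and the summed CPM (right) of fibrillar, basement membrane and other chains in the 4 libraries, 1 library a bar. Fibrillar chains are the largest part of the 2D co-culture and the tumor, and basement membrane chains that of the 2D monoculture (49.1%) and the spheroid (55.2%).

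The chain of highest level per kilobase of exon differed between the libraries. It was Col4a5 with 7.95 CPM per kilobase in the 2D monoculture, Col1a2 with 41.4 in the 2D co-culture, Col4a1 with 29.5 in the spheroid and Col3a1 with 133 in the tumor. These 4 genes stayed first when the longest transcript set the length. By CPM, 22 members reached 1 CPM in the 2D monoculture, 27 in the 2D co-culture, 24 in the spheroid and 31 in the tumor.

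**Figure D2:**
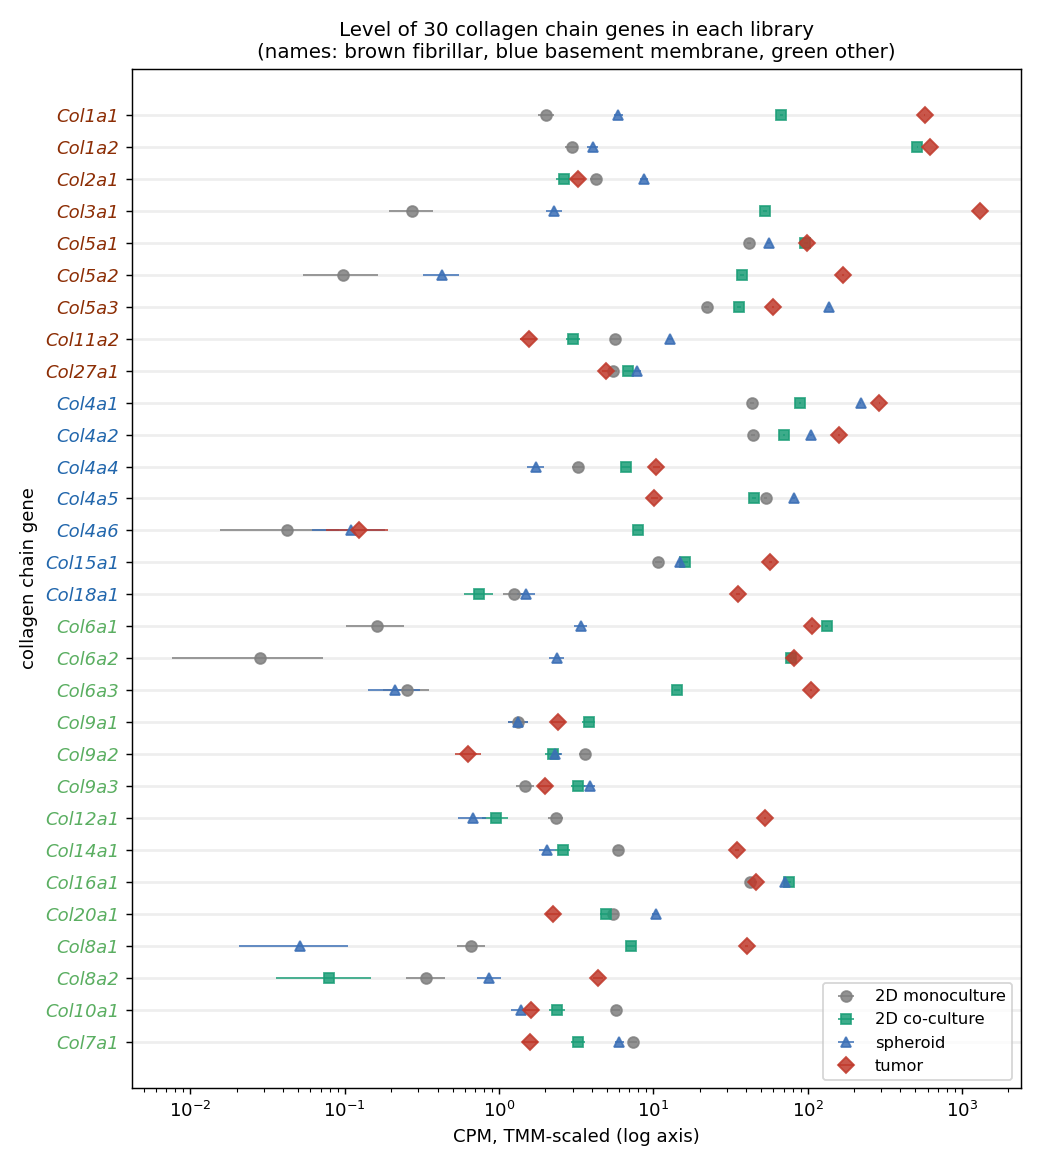
Each row is one of the 30 collagen chain genes that averaged 1 CPM or more, and each point its TMM-scaled CPM in 1 library on a log axis with its 95% counting interval. Types I, III and VI lie under 7 CPM in the 2D monoculture and the spheroid and above 10 CPM in the 2D co-culture and the tumor.

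Types I and III, the main collagens of fibroblasts, split the libraries into a low and a high pair. Col1a1, the chain present in double dose in type I collagen, had 2.03 CPM in the 2D monoculture, 67.7 in the 2D co-culture, 5.93 in the spheroid and 575 in the tumor. Col1a2, its partner chain, had 2.97, 514, 4.05 and 622 CPM in that order. Col3a1, the single chain of type III collagen, had 0.274, 53.1, 2.28 and 1307 CPM.
All 3 were lowest in the 2D monoculture, next in the spheroid, higher in the 2D co-culture and highest in the tumor. Together they made 1.65% of collagen reads in the 2D monoculture, 45.8% in the 2D co-culture, 1.59% in the spheroid and 64.2% in the tumor. Against the 2D monoculture, their sum in the 2D co-culture was 120-fold higher (log2 6.91, interval 6.81 to 7.02) and in the spheroid 2.33-fold higher (log2 1.22, interval 1.09 to 1.34). In the spheroid the 3 levels were between 0.174% and 1.03% of the tumor's, and those of the 5 skeletal muscle genes were between 0.124% and 1.35% of it. Reads of another library in the spheroid's were not tested for.

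Type V chains, which set the width of type I fibrils, did not move as a block. Col5a1 was the most even of the 3, with 41.8 CPM in the 2D monoculture, 96.2 in the 2D co-culture, 56.0 in the spheroid and 99.8 in the tumor. Col5a2 had 0.0983, 37.5, 0.426 and 169 CPM. Col5a3, a less common partner, had 22.2, 35.8, 138 and 59.6 CPM.
Col5a2 thus showed the order of types I and III, whereas Col5a3 was highest in the spheroid. Col5a3 was 6.22-fold higher in the spheroid than in the 2D monoculture (log2 2.64, interval 2.58 to 2.69) and 3.86-fold higher than in the 2D co-culture. Its ratio of spheroid to tumor was 2.32 (log2 1.21), but turned to a log2 of -0.58 when GC content and gene length were corrected for, while the log2 ratio to the 2D monoculture then came to 1.87.

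The remaining fibrillar chains were low in every library. Col11a2, a chain of cartilage type XI collagen, had 5.66 CPM in the 2D monoculture, 3.03 in the 2D co-culture, 12.8 in the spheroid and 1.56 in the tumor. Col2a1, the chain of cartilage type II collagen, had 4.23, 2.64, 8.69 and 3.25 CPM. Col27a1, a fibrillar chain of a separate branch, had 5.45, 6.90, 7.88 and 4.97 CPM.
These 3 were highest in the spheroid, but with the correction for GC content and length Col2a1 and Col27a1 had log2 ratios of spheroid to tumor of -0.36 and -0.81, against 1.42 and 0.66 without it. Among cartilage genes, Acan and Matn1 stood at no more than 0.0308 CPM in any library, Matn3 reached at most 2.45 CPM, and Hapln1 reached 34.6 CPM in the tumor, with 3.60 CPM in the 2D co-culture. Col11a1 and Col24a1 reached at most 1.37 CPM, in the tumor.

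Ratios of chains inside a library do not depend on the scaling between libraries. Per kilobase of the union of exons the ratio of Col1a1 to Col1a2 was 1.29 in the 2D monoculture, 0.249 in the 2D co-culture, 2.78 in the spheroid and 1.75 in the tumor. With the longest transcript as length, which is 5348 bases for Col1a2 against 12426 bases of union exons, the ratios were 0.616, 0.119, 1.32 and 0.834. Under both lengths the 2D co-culture was the lowest, its interval (0.244 to 0.255 with union exons) lying apart from those of the other libraries, while whether Col1a1 exceeded Col1a2 turned with the length in the 2D monoculture and the tumor.
The ratio of Col5a1 to Col5a2, partners in the main form of type V collagen, was 481 (interval 286 to 880) in the 2D monoculture, 2.90 in the 2D co-culture, 149 in the spheroid and 0.667 in the tumor. Only the tumor had more Col5a2 than Col5a1 per kilobase. The ratio of Col5a3 to Col5a1, a pair added after its values were seen, was 0.662, 0.464, 3.08 and 0.744, so that Col5a3 exceeded Col5a1 in the spheroid alone. The ratio of Col3a1 to Col1a1 was 0.0902, 0.524, 0.257 and 1.52, and rose with the longest transcript to 0.144, 0.836, 0.409 and 2.42.

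**Figure D3:**
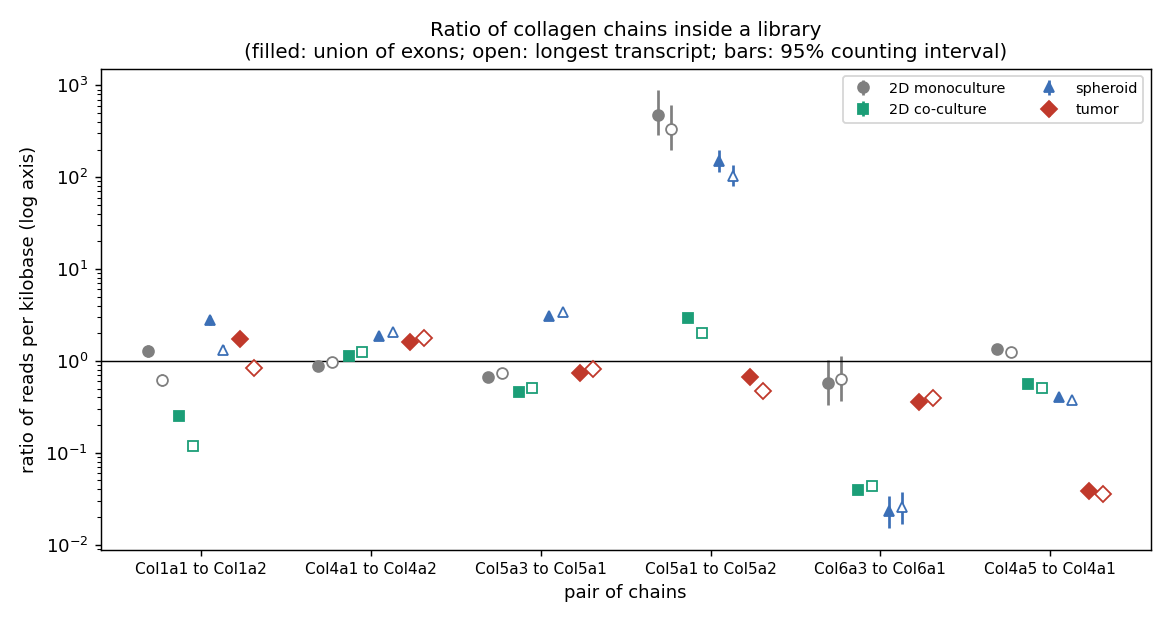
Each group of points is the ratio of reads per kilobase of a pair of chains in the 4 libraries on a log axis, with filled points for the union of exons, open points for the longest transcript and bars for 95% counting intervals. The ratio of Col1a1 to Col1a2 is lowest (0.249) for the 2D co-culture, and the ratio of Col5a3 to Col5a1 passes 1 in the spheroid alone (3.08).

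Basement membrane chains had reads in the library of every culture, although Col4a3 and Col4a6 stayed under 1 CPM in the 2D monoculture and the spheroid. Col4a1 and Col4a2, the pair of the common type IV network, start within a few bases of each other and run in opposite directions on chromosome 8. Col4a1 had 43.7 CPM in the 2D monoculture, 89.3 in the 2D co-culture, 220 in the spheroid and 291 in the tumor. Col4a2 had 44.3, 70.4, 105 and 160 CPM.
Both were lowest in the 2D monoculture and highest in the tumor, with the spheroid next to it, although for Col4a2 the log2 ratio of spheroid to 2D co-culture, 0.57, was -0.04 with the correction for GC content and length. The rise from 2D monoculture to spheroid was 5.04-fold for Col4a1 (log2 2.33, interval 2.29 to 2.37) and 2.36-fold for Col4a2 (log2 1.24, interval 1.20 to 1.28), and with that correction the log2 ratios were 1.75 and 0.47. The ratio of Col4a1 to Col4a2 per kilobase was 0.875 in the 2D monoculture, 1.13 in the 2D co-culture, 1.87 in the spheroid and 1.61 in the tumor.

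Col4a5 and Col4a6, which lie head to head on the X chromosome, had no common pattern. Col4a5 had 53.4 CPM in the 2D monoculture, 44.9 in the 2D co-culture, 81.2 in the spheroid and 10.2 in the tumor. Col4a6 had 0.0421, 7.97, 0.110 and 0.123 CPM, from 6, 913, 15 and 20 reads.
Col4a5 was high in all 3 cultures and lowest in the tumor, at 5.25 times under the 2D monoculture, and Col4a6 was high in the 2D co-culture alone, 189-fold above the 2D monoculture (log2 7.56, interval 6.44 to 9.01) and 64.7-fold above the tumor. Per kilobase, Col4a6 reached 0.150 of the level of Col4a5 in the 2D co-culture and at most 0.0102 of it elsewhere. The level of Col4a5 per kilobase was 1.36 times that of Col4a1 in the 2D monoculture and 0.0388 of it in the tumor.
Col4a4, a chain of the kidney type of network, had 3.24, 6.65, 1.73 and 10.5 CPM in the order given, while its partner Col4a3 stayed at or under 0.526 CPM. Col15a1 and Col18a1, which join basement membranes to the tissue around them, were highest in the tumor. Col15a1 had 10.8, 16.1, 14.9 and 57.4 CPM, and Col18a1 1.24, 0.742, 1.5 and 35.5 CPM. The 10 endothelial genes summed to 313, 304, 407 and 416 CPM, of which Eng made most in the cultures, while Pecam1 had 99.4 CPM in the tumor against at most 0.236 CPM in a culture, and the part of endothelial cells in Col15a1 and Col18a1 was not tested.

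The beaded filament chains of type VI collagen were near 0 in B16F10 cells grown alone and over 10 CPM in the tumor as well as in the 2D co-culture. Col6a1 had 0.161 CPM in the 2D monoculture, 133 in the 2D co-culture, 3.38 in the spheroid and 107 in the tumor. Col6a2 had 0.0281, 78.0, 2.36 and 82.0 CPM, from 4, 8934, 322 and 13308 reads. Col6a3, the long chain of the filament, had 0.253, 14.3, 0.213 and 104 CPM.
Col6a1 and Col6a2 were thus higher in the spheroid than in the 2D monoculture, by 20.9-fold (log2 4.39, interval 3.78 to 5.06) and 84.2-fold (log2 6.40, interval 5.03 to 8.28), whereas Col6a3 was not, with a log2 ratio of -0.25 and an interval that held 0 (0.08 with the correction for GC content and length). Between the 2D co-culture and the tumor, Col6a1 had a log2 ratio of 0.30, which turned to -0.74 with that correction, Col6a2 of -0.07 and Col6a3 of -2.87. The 3 chains of the filament are built in equal number, and the ratio of Col6a3 to Col6a1 per kilobase was 0.356 in the tumor, with 0.0394 (2D co-culture) and 0.0231 (spheroid) far under it. The spheroid's Col6a1 and Col6a2 were 3.14% and 2.88% of the tumor's level. Col6a4, Col6a5 and Col6a6 had no more than 1 read in any culture and between 41 and 61 reads in the tumor.
Of the 9 fibroblast genes, 2 (Thy1 and Pdgfrb) were over 2-fold higher in the 2D co-culture than in the 2D monoculture, 2 (Fbln1 and Pdgfrb) in the spheroid and 7 in the tumor. The shares of genes with a read that were over 2-fold higher were 2.7%, 7.35% and 12.4% in that order. Thy1, a fibroblast surface protein, had 0.0211 CPM in the 2D monoculture, 12.5 in the 2D co-culture, 0.286 in the spheroid and 49.2 in the tumor. Acta2, an actin of smooth muscle and activated fibroblasts from the mural list, had 0.175, 43.6, 0.25 and 100 CPM. Notch3 of the same list was instead the top mural gene of the spheroid, with 43.6 CPM against 5.41 in the 2D monoculture. Of the 5 mural genes, 2 were over 2-fold higher in the 2D co-culture than in the 2D monoculture, 1 in the spheroid and 4 in the tumor, beside the same shares. Fbln1, the most abundant fibroblast gene of the cultures, had an order unlike that of Thy1 and Acta2, with 105, 186, 266 and 58.4 CPM. Dcn, Lum and Fap were at most 1.68 CPM in the 2D co-culture. NIH/3T3 cells left after the sort were not tested for in the 2D co-culture and spheroid libraries.

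Among the FACIT chains Col16a1 held the largest share in every culture, with 42.4 CPM in the 2D monoculture, 76.1 in the 2D co-culture, 71.9 in the spheroid and 46.0 in the tumor. Col12a1 and Col14a1, which coat type I fibrils, were highest in the tumor and lowest in the spheroid. Col12a1 had 2.33, 0.952, 0.676 and 52.9 CPM, and Col14a1 5.91, 2.59, 2.06 and 34.8 CPM. Their log2 ratios of spheroid to 2D co-culture were -0.49 and -0.33, and came to -0.14 and -0.04 with the correction for GC content and length.
The 3 chains of cartilage type IX collagen differed from each other, with 1.33, 3.81, 1.34 and 2.42 CPM for Col9a1, 3.59, 2.24, 2.30 and 0.634 CPM for Col9a2, and 1.48, 3.25, 3.86 and 1.99 CPM for Col9a3. Each of the 3 thus had another library at its top, but with the correction for GC content and length the tumor passed the top of Col9a3 (log2 ratio of spheroid to tumor -0.81) and that of Col9a1 (2D co-culture to tumor -0.05). Col20a1 had 5.52, 4.94, 10.4 and 2.25 CPM.

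The short chains Col8a1 and Col8a2 of type VIII collagen, which line blood vessels and the cornea, were both highest in the tumor but parted in the cultures. Col8a1 had 0.660 CPM in the 2D monoculture, 7.18 in the 2D co-culture, 0.0514 in the spheroid and 40.4 in the tumor. Col8a2 had 0.337, 0.0786, 0.867 and 4.4 CPM.
The ratio of Col8a1 to Col8a2 per kilobase was 0.0340 in the spheroid against 52.3 in the 2D co-culture. Col10a1, the chain of growth plate type X collagen, had 5.70, 2.38, 1.38 and 1.61 CPM, and Col7a1, the chain of the anchoring fibrils of skin, had 7.36, 3.24, 6.01 and 1.60 CPM. These were highest in the 2D monoculture. Of the 14 members with a mean under 1 CPM, Col23a1, a chain anchored in the cell membrane, was the one with over 100 reads in the 2D monoculture or the spheroid, at 0.295, 0.166, 0.859 and 0.610 CPM. The other 13 had between 0 and 3.14 CPM, the highest being Col28a1 in the tumor.

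Counts over all 44 members place these levels beside all genes. The first shares given are those of genes that averaged 1 CPM or more, and the shares of all genes with a read are the match for a count over 44. A member was counted as higher or lower when log2(CPM + 1) differed by more than 1, that is 2-fold, and a member that reached a mean of 1 CPM only through the library in which it is high had to differ. Comparisons that share a library are not independent of each other. For the spheroid against the 2D monoculture, 8 members were higher and 2 lower, against 11.2% and 17.9% of the 12728 genes that averaged 1 CPM or more (7.35% and 11.6% of all 19894 genes with a read). The higher ones were Col1a1, Col3a1, Col5a3, Col11a2, Col4a1, Col4a2, Col6a1 and Col6a2, and the lower ones Col14a1 and Col10a1. With the correction for GC content and length 5 members were higher in place of 8, and 1179 genes in place of 1421.
For the 2D co-culture, 12 members were higher than in the 2D monoculture and 0 lower, against 3.79% and 9.51% of genes (483 and 1210; 642 and 1002 with upper quartiles) and 2.7% and 6.19% of genes with a read. Of the 12, 5 were fibrillar, 2 of basement membranes (Col4a1 and Col4a6) and 5 of other classes. With the total count of each library in place of TMM 2 members were lower, beside 1262 of 12795 genes. For the tumor, 21 members were higher than in the 2D monoculture and 6 lower, against 14.8% and 18.2% of genes (1885 and 2322) and 12.4% and 11.8% of genes with a read. Total counts turned the split of genes to 2426 higher and 1577 lower, and upper quartiles to 2403 and 1542. The 6 lower members were 13.6% of the 44, near the 11.8% of genes with a read. They were Col11a2, Col4a5, Col9a2, Col20a1, Col10a1 and Col7a1, of which 2 were left with the correction for GC content and length, as the lower genes went from 2322 to 781. With that correction 23 of the 30 members with a mean of at least 1 CPM were higher in place of 18, and 2015 genes in place of 1885.
For the spheroid against the tumor, 7 members were higher and 17 lower, against 26.8% and 27.6% of genes (3413 and 3517; 2472 and 4334 with total counts) and 17.4% and 20.6% of genes with a read. The 7 were thus 15.9% of members, near that share, and the 17 were 38.6%. With the GC and length correction 1 member and 2171 genes were higher. Of the 30 members with a mean of at least 1 CPM, 20 were then lower in place of 14, as the lower genes went from 3517 to 2785. For the 2D co-culture against the tumor, 2 members (Col4a5 and Col4a6) were higher and 14 lower, against 18.8% and 20.9% (2388 and 2664; 1534 and 3247 with total counts) and 12.1% and 16.1% of genes with a read. With the correction 17 of those 30 members were lower in place of 12, and 2410 genes in place of 2664. Between spheroid and 2D co-culture, 4 members (Col2a1, Col5a3, Col11a2 and Col4a1) were higher and 11 lower, against 9.54% and 8.46% (6.29% and 5.7% of genes with a read). The 4 were 9.09% of members, near the share of genes with a read, and the 11 were 25.0%. The median difference over all 44 members was 0.05 (spheroid), 0.13 (2D co-culture) and 0.55 (tumor) against the 2D monoculture, and over all genes with a read it was 0, 0 and 0.01.

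**Figure D4:**
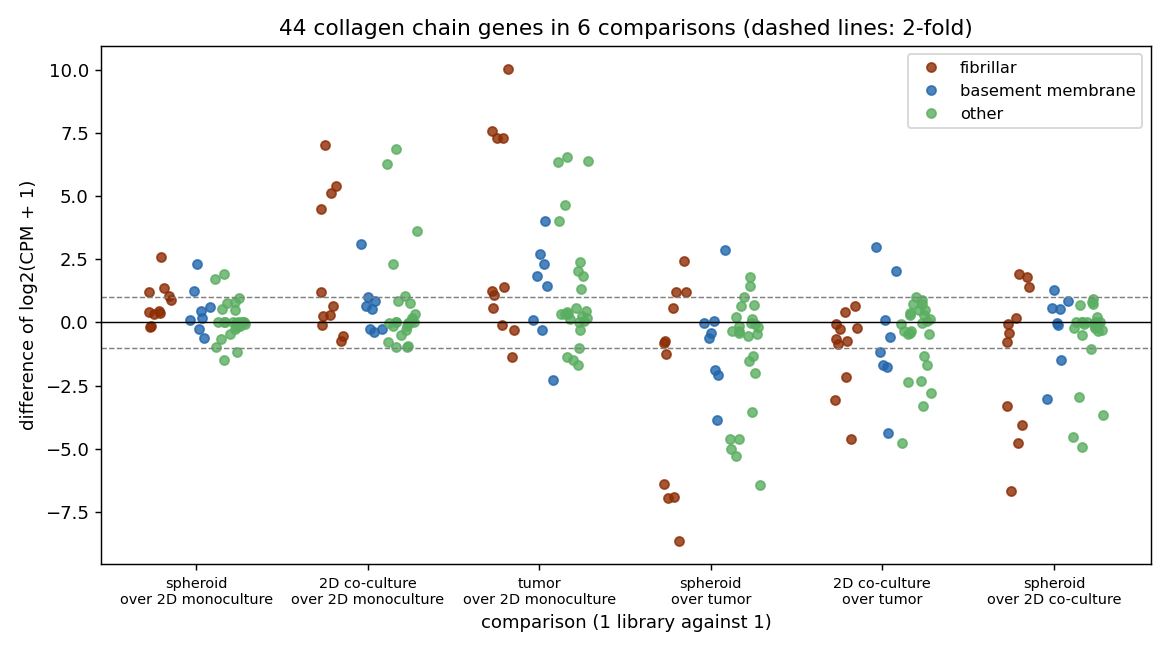
Each point is 1 of the 44 collagen chain genes, placed by its difference of log2(CPM + 1) in 6 comparisons of 1 library against 1 and coloured by class, with dashed lines at 2-fold. The 2D co-culture has 12 members above the upper line against the 2D monoculture and 0 under the lower one.

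Among the 30 members with a mean of at least 1 CPM, 16 were highest in the tumor, where 31.0% of all 12728 such genes were highest. The spheroid was highest for 7 members and 34.7% of genes. Of the flat cultures, the one with fibroblasts was highest for 4 members and 15.8% of genes, and the monoculture for 3 members and 18.5%. A member or gene that reached this mean only through the library in which it is high had to be highest there. Without this limit, 24 of the 44 members were highest in the tumor, 8 in the spheroid and 6 in each flat culture. The matching shares of all genes with a read are not given here. The 7 of the spheroid were Col2a1, Col5a3, Col11a2, Col27a1, Col4a5, Col9a3 and Col20a1. No member changed its highest library under the other 3 scalings, but with the correction for GC content and length the spheroid no longer exceeded the tumor for Col2a1, Col5a3, Col27a1 and Col9a3, nor the 2D co-culture the tumor for Col6a1 (log2 -0.74), Col16a1 (-0.53) and Col9a1 (-0.05).

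GC content moved with the differences of the spheroid and with those of the tumor. The exons of the 30 members had a median GC content of 56.5%, against 49.7% over 12664 genes with a value. Across the 30 members, Spearman's rho between GC content and the difference of spheroid and 2D monoculture was 0.467, and over all those genes it was 0.463. For the spheroid against the tumor, rho was 0.536 over the members and 0.524 over all genes. For the tumor against the 2D monoculture it was -0.382 and -0.381, and for the 2D co-culture against the tumor 0.317 and 0.458. For the 2D co-culture against the 2D monoculture the signs differed, with -0.265 over the members and 0.201 over all genes. The genes of a library share its depth and are not independent replicates, and the part of GC content in these differences was not tested beyond the corrected values given.

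**Figure D5:**
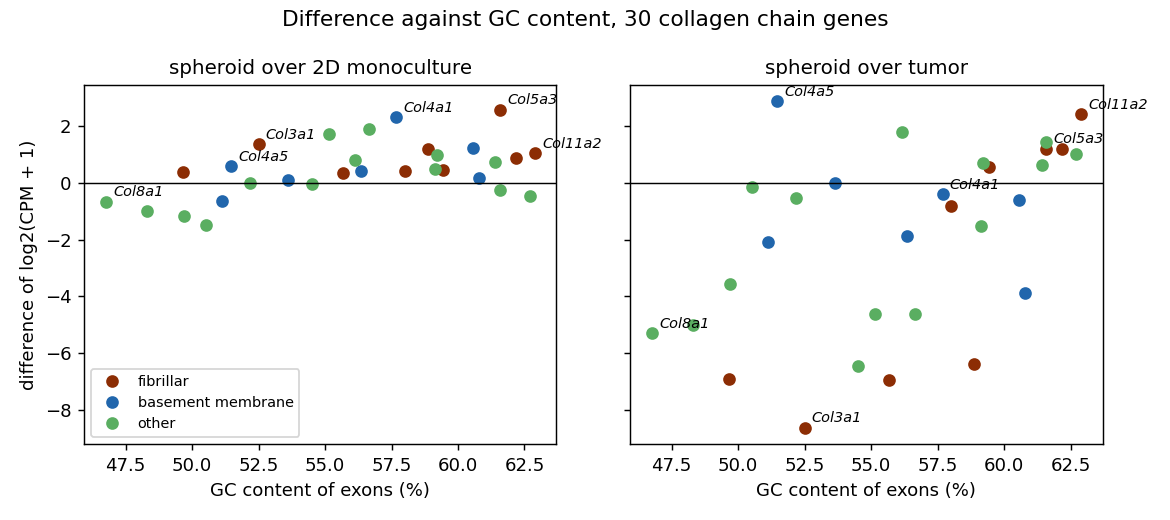
The difference of log2(CPM + 1) of the spheroid to the 2D monoculture (left) and to the tumor (right) is plotted against the GC content of exons for the 30 members with a mean of at least 1 CPM. Col5a3 is the highest member on the left, with Col4a1 next, and the members under 0 on the right include Col3a1 and Col8a1.

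The enzymes that make and cross-link collagen did not share 1 pattern. Of 31 genes measured, 6 were over 2-fold higher and 2 lower in the 2D co-culture than in the 2D monoculture, 1 higher and 1 lower in the spheroid, and 9 higher and 2 lower in the tumor. The shares of genes with a read were 2.7% and 6.19%, 7.35% and 11.6%, and 12.4% and 11.8%. The most abundant were Serpinh1, the collagen chaperone of the endoplasmic reticulum, P4hb, the beta subunit of prolyl hydroxylase, and Plod1, a lysyl hydroxylase. Serpinh1 had 1604 CPM in the 2D monoculture, 2047 in the 2D co-culture, 2879 in the spheroid and 1045 in the tumor.
P4hb had 1403, 1304, 721 and 964 CPM, and Plod1 288, 274, 359 and 151 CPM. The cross-linking enzymes Lox and Loxl1, named after their values were seen, had the order of type I. Lox had 0.00702, 179, 0.867 and 188 CPM, and Loxl1 0.0842, 36.2, 0.536 and 45.0 CPM.

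Of 10 collagen receptor genes, 2 were over 2-fold higher in the 2D co-culture than in the 2D monoculture, 1 higher and 2 lower in the spheroid, and 5 higher and 1 lower in the tumor, beside the same shares of genes with a read, to which the spheroid counts are near. Itgb1, the beta chain of the collagen-binding integrins, had 546 CPM in the 2D monoculture, 397 in the 2D co-culture, 190 in the spheroid and 790 in the tumor. Ddr1, a receptor kinase for collagen, had 311, 208, 410 and 57.8 CPM, and Ddr2, its relative for fibrillar collagen, 158, 121, 118 and 101 CPM. Ddr1 was highest and Itgb1 lowest in the spheroid, before any correction for GC content and length. Corrected values are not given here for the receptor and enzyme genes.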

How the data were processed

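Per gene, the authors deposited whole-number read counts without normalization in 1 table for 4 libraries of poly(A) RNA, 1 per condition. The submitters' processing notes name Trimmomatic, STAR, featureCounts and build mm10, and the sources used here do not give versions or the strand setting. The study's text speaks of 3 samples, whereas 1 library per condition was analysed here.

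Counts were scaled to CPM with TMM factors (edgeR 4.0.16, R 4.3.3). Alternatives were DESeq2 1.42.0 size factors, total counts, upper quartiles, a pseudocount of 0.1 CPM in place of 1 CPM, other filters, and removal of the median log2 ratio of 10 GC by 10 length classes. Intervals are exact (Clopper-Pearson, 95%). Log2 ratios of single genes have no pseudocount, and counts of genes use log2(CPM + 1). Lengths and GC content came from GENCODE vM21, matched by symbol for all 44 members. Calls and intervals were tested on simulated data. The simulated counts held counting error alone, so that test says nothing about variation between samples. Every member with a mean of at least 1 CPM was named, or with over 100 reads in the 2D monoculture or spheroid, and the 3 most abundant genes of the other lists. The members and lists were chosen with earlier results of these data known. Marker genes named beside a result were picked after their values were seen. Protein sequences were not used here.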

Additional observations from a re-analysis of the deposited data

How the results depend on the processing

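No paired analysis was possible because there was 1 library per condition. DESeq2 size factors and upper quartile scaling moved no count of members, class median or class sum by over 1.5 times, but upper quartiles took the genes lower in the tumor than in the 2D monoculture from 2322 to 1542. Of 180 log2 ratios of single members, 24 had another sign with the correction for GC content and length, 3 with total counts, 1 with upper quartiles and 0 with DESeq2 size factors, and 3 ratios over 2-fold reversed with the correction, at -0.36 (Col2a1, spheroid to tumor), -0.58 (Col5a3, spheroid to tumor) and -0.33 (Col7a1, 2D co-culture to tumor). The median log2 difference of all genes between tumor and 2D monoculture was -0.14 with TMM, 0.09 with total counts and 0.10 with upper quartiles, and between spheroid and tumor it was 0.08 with TMM and -0.27 with total counts, so single ratios shift by as much. The causes were not tested.

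With the correction, 5 members were higher in the spheroid than in the 2D monoculture, 1 lower in the 2D co-culture than in it, 2 lower in the tumor than in it, 1 higher in the spheroid than in the tumor and 2 higher in the spheroid than in the 2D co-culture. These are counts of 30 members, and of 12728 genes 1179, 908, 781, 2171 and 891 were so called in the same order. The corrected median log2 ratios of fibrillar, basement membrane and other chains were 2.76, 3.21 and 2.18 (tumor to 2D monoculture), -2.59, -1.92 and -2.42 (spheroid to tumor) and -1.51, -2.43 and -0.69 (2D co-culture to tumor), and -0.092 for basement membrane chains (spheroid to 2D co-culture), in place of 1.38, 1.83 and 1.28, of -0.82, -0.61 and -1.04, of -0.27, -1.18 and 0.34, and of 0.52. With total counts, 2 members were lower in the 2D co-culture than in the 2D monoculture and 4 higher in the spheroid than in the tumor, and the median of other chains was 2.01 (tumor to 2D monoculture) and -1.78 (spheroid to tumor). With a pseudocount of 0.1 CPM, 4 members were lower in the spheroid than in the 2D monoculture and 5 in the 2D co-culture than in it, and 4 higher in the 2D co-culture than in the tumor. Genes so called with total counts were 1262 and 2472 of 12795, and with that pseudocount 2578, 1495 and 2636 of 12728, in the orders given.

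With a mean of at least 10 CPM, which leaves 17 of the 30 members, 1 member was lower in the spheroid and 1 in the tumor than in the 2D monoculture, against the tumor 2 were higher in the spheroid and 1 in the co-culture on plastic, and 2 higher in the spheroid than in the 2D co-culture. Of the 9588 genes with such a mean, 1931, 2087, 2962, 2203 and 855 were so called in the same order. The medians of fibrillar and other chains were then 4.82 and 2.30 (2D co-culture to 2D monoculture), 7.28 and 4.64 (tumor to 2D monoculture), -6.64 and -4.63 (spheroid to tumor), -1.43 and -2.34 (2D co-culture to tumor) and -3.68 and -2.96 (spheroid to 2D co-culture). Without this limit, the first pair was 1.18 and 0.32 and the last -0.77 and -0.23. A member that reached a mean of 10 CPM only through the library in which it is high had to differ. The larger medians under this filter are therefore no evidence of larger differences. With every gene with a read, the median of other chains was 0.34 (tumor to 2D monoculture) and -0.33 (spheroid to tumor). With type IV chains alone, the basement membrane median of 2D co-culture to tumor was -0.58.

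With the longest transcript as length, the ratios in the 2D monoculture, 2D co-culture, spheroid and tumor were 0.616, 0.119, 1.32 and 0.834 (Col1a1 to Col1a2), 0.144, 0.836, 0.409 and 2.42 (Col3a1 to Col1a1), 0.729, 0.511, 3.39 and 0.820 (Col5a3 to Col5a1), 0.962, 1.24, 2.05 and 1.77 (Col4a1 to Col4a2) and 1.24, 0.509, 0.373 and 0.0353 (Col4a5 to Col4a1). In the 2D co-culture, spheroid and tumor they were 2.02, 104 and 0.465 (Col5a1 to Col5a2) and 2.04, 1.71 and 1.57 (Col6a1 to Col6a2). In the 2D co-culture they were 0.174 (Col4a6 to Col4a5) and 0.0437 (Col6a3 to Col6a1), in the tumor 0.395 (Col6a3 to Col6a1) and 7.79 (Col8a1 to Col8a2), and in the 2D monoculture 1.66 (Col8a1 to Col8a2).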
